A study of Drosophila melanogaster with 3 samples.

Results

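The small nucleolar RNA genes comprised the 274 genes of the Ensembl models of Drosophila melanogaster (genome release 6, dm6) whose symbols begin with snoRNA: or scaRNA:, out of 18164 annotated genes on the arms X, 2L, 2R, 3L, 3R and 4. Of these, 17 were scaRNA genes. Binding of Hsf, the heat shock transcription factor, had been mapped by chromatin immunoprecipitation and sequencing (ChIP-seq) in whole embryos. They were collected between 0 and 24 h of age, with both sexes mixed. The embryos came from 1 transgenic line that stably carries Hsf fused to eGFP at its C terminus, and the precipitation used an antibody against GFP. All 3 samples were biological replicates of this 1 genotype. No heat treatment was labelled, no untagged or heat-shocked group was compared, and a control experiment named in the labels entered only through the authors' own scores. Whole embryos of all embryonic ages mix many cell types, so a region bound strongly in few cells and one bound weakly in many cannot be told apart. The authors deposited 30000 pooled candidate regions, each with a signal (their peak score against a control). The 5756 in their optimal list, which passed a test of reproducibility (IDR, irreproducible discovery rate), are called optimal peaks here. A region was assigned to a gene when its summit lay within 500 bp of the annotated gene start, and a region near several genes of the set was counted once. Each replicate list ranks its regions on a signal scale of its own. The read depth is unknown, so counting error per region cannot be given.

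Small nucleolar RNAs (snoRNAs) pair with ribosomal RNA and guide its chemical modification in the nucleolus. Those with C and D boxes direct 2'-O-methylation by fibrillarin, and those with H and ACA boxes direct pseudouridylation by dyskerin, which is Nop60B in the fly. The related scaRNAs guide the modification of spliceosomal RNAs in Cajal bodies. Most fly snoRNAs are not transcribed on their own but are cut out of the introns of a host gene, often one that encodes a ribosomal protein or a noncoding host transcript of the Uhg family. U3, a snoRNA needed for cleavage of the ribosomal RNA precursor, is an exception with promoters of its own.

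The annotation followed that arrangement. A host, defined as the shortest non-member gene that contains the snoRNA gene on the same strand, was found for 251 of the 274 genes (91.6%), in 96 hosts, of which 86 were protein-coding and 10 noncoding. Of the hosted genes, 228 overlapped no exon of their host. The median snoRNA gene was 134 bp long (range 46 to 511), and the median hosted one started 1837 bp from its host's start. The genes fell by name into 106 Psi genes (H/ACA guides of pseudouridylation), 78 Me genes (C/D guides of methylation), 15 orphan C/D genes (Or-CD), 9 orphan H/ACA genes (Or-ACA), 16 with U names, 17 scaRNA genes and 33 with other names.

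The sequences of 6 snoRNA genes that lay within 500 bp of an optimal peak are shown 5' to 3' from the RefSeq genome sequence of dm6, because they are the transcripts whose neighbourhood carried the peaks. In the first 3, capitals mark the C box (TGATGA) and the D box (CTGA). In the other 3, capitals mark the ACA triplet near the 3' end. U49:66Da lies in an intron of RpL14 (chr3L:8601473-8601552, plus strand), Me28S-A774b in RpS12 (chr3L:13023580-13023652, plus strand) and Me18S-A1576 in Uhg2 (chr2L:9894795-9894907, minus strand). Psi18S-1275 lies in RpS29 (chr3R:9778398-9778537, plus strand), Psi28S-1232 in RpL17 (chrX:6743675-6743815, minus strand) and Psi18S-920 in RpL10Ab (chr3L:11822984-11823124, plus strand).
U49:66Da: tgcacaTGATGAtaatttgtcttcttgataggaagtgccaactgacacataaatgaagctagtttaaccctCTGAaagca
Me28S-A774b: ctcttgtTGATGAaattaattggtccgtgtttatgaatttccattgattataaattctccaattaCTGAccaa
Me18S-A1576: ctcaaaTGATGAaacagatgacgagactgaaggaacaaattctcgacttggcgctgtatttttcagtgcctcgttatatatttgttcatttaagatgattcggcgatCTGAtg
Psi18S-1275: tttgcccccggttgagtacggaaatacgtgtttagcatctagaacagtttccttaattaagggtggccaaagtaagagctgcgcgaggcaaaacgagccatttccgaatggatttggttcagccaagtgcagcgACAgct
Psi28S-1232: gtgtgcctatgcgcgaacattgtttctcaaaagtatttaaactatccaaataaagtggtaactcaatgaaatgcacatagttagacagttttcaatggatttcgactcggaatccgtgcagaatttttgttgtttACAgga
Psi18S-920: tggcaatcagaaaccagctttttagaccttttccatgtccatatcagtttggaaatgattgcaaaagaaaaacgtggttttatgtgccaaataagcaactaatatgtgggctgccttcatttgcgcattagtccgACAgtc

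Of the 17 optimal peaks near snoRNA genes, 9 lay within 500 bp of the host start. For 5 such hosts, the part of the optimal peak upstream of the host start is shown on the host's strand, ending 1 base before the start, to show the promoter side of these peaks. They are RpL28 (chr3L:3222961-3223165, minus strand), RpS12 (chr3L:13023195-13023351, plus strand), RpL10Ab (chr3L:11822754-11822850, plus strand), RpL17 (chrX:6744239-6744443, minus strand) and Uhg2 (chr2L:9895004-9895237, minus strand). Capitals mark the site of DREF, a factor of proliferation-related promoters (TATCGATA), in RpL28, RpS12 and RpL10Ab, a match with 1 mismatch to the site of M1BP, a core promoter factor (GGTCACACT), in RpL17, and the E-box (CACGTG) in Uhg2. None of the 5 stretches held a heat shock element. The peak at Uhg4, not shown, had one within 100 bp of its summit. Hsf recognises alternating GAA units in opposite orientation, and an element was counted where 3 such units followed each other with 2 bases between them and at most 1 mismatch. A match is a description of the letters, not of a bound site.
RpL28: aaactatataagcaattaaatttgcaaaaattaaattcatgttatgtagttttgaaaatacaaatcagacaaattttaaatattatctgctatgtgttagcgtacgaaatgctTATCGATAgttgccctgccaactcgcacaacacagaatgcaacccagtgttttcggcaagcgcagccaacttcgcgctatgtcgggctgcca
RpS12: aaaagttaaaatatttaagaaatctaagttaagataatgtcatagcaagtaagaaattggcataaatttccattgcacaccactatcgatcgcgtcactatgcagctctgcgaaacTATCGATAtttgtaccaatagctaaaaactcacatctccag
RpL10Ab: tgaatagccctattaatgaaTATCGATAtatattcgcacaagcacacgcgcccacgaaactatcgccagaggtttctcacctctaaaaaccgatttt
RpL17: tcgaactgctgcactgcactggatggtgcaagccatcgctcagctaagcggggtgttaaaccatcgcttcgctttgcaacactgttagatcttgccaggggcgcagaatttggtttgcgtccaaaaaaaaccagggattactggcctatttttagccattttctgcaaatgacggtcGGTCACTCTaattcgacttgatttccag
Uhg2: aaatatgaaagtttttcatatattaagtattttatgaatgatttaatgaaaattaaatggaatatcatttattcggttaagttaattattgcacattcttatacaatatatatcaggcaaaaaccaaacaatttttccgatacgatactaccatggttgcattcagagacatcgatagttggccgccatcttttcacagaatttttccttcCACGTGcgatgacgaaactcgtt

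The starts of snoRNA genes themselves carried few Hsf-GFP regions. A candidate summit lay within 500 bp of 74 of the 274 genes (27.0%), against 48.2% of all genes, and an optimal summit within 500 bp of 21 (7.66%), against 19.8% of all genes. Neither share was tested, because neighbouring snoRNA genes share regions and all genes include the set. The other 200 snoRNA genes had no candidate, and 11 had at least 2. The 74 genes shared 72 distinct regions, of which 17 were optimal (23.6%), against 31.9% of the 8052 regions near any gene start and 19.2% of the pooled regions. Their median signal was 43.4, against 60.2 for regions near any gene start and 41.4 for all pooled regions. In the replicates' own lists, cut at their 5756 strongest regions, 20, 12 and 21 snoRNA genes had a region in replicates 1, 2 and 3. That was 6.45% ± 1.80 of the set (SD, n = 3), against 19.6% ± 0.666 of all genes, so that the gap was seen in each of the 3 replicates and replicate 2 gave the lowest count. The size of the window decided it, since with 1000 bp the optimal share was 23.7% of the snoRNA genes and 24.1% of all genes, and with 200 bp it was 2.19% and 14.1%. Leaving out replicate 1 or replicate 3, and counting optimal peaks in the top 5756 of both others, gave 11 snoRNA genes in each case (4.01%), against 15.6% and 15.0% of all genes.

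Other genes nested inside a gene gave shares near these. Of 1586 other genes that lie inside another gene on the same strand, 30.1% had a candidate and 7.50% an optimal peak. Of 260 miRNA genes, 28.1% had a candidate and 3.85% an optimal peak. The 290 tRNA genes had candidates more often (47.6%) and optimal peaks at 6.90%, and the 32 snRNA genes had optimal peaks at 25.0%. The 23 snoRNA genes without a host had higher shares than the hosted ones, which was not tested. Of these 23, 17 had a candidate (73.9%) and 5 an optimal peak (21.7%), against 22.7% and 6.37% of the 251 hosted genes. Those 5 optimal calls rested on 3 regions, since 1 region served 3 of the genes.

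**Figure D1:**
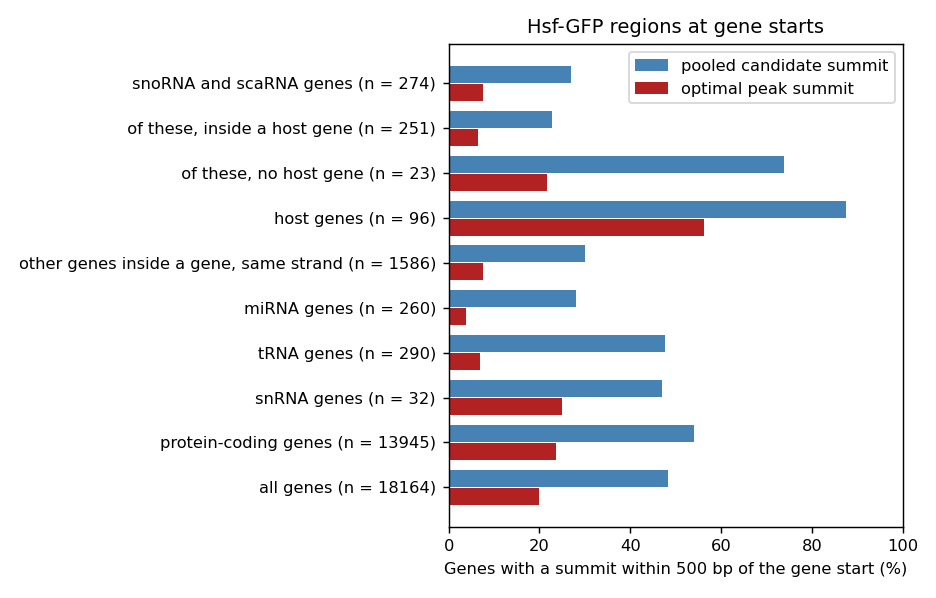
Percentage of genes in each class with a pooled candidate summit (blue) or an optimal peak summit (red) within 500 bp of the gene start. The snoRNA and scaRNA genes are at 27.0% and 7.66%, their hosts at 87.5% and 56.2%, and all genes at 48.2% and 19.8%.

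The host genes were the reverse case. Of the 96 hosts, 84 had a candidate within 500 bp of their own start (87.5%) and 54 an optimal peak (56.2%), against 19.8% of all genes and 23.7% of protein-coding genes. The median signal of the strongest region at a host start was 140.4, against 77.8 over all genes with a candidate. In the replicates' strongest 5756 regions, 54, 52 and 52 hosts had a region in replicates 1, 2 and 3 (54.9% ± 1.15, SD, n = 3). Of the 54 optimal hosts, 40 had their region in the top 5756 of all 3 replicates, 11 of 2 and 3 of 1. Counted by snoRNA gene, 143 of the 251 hosted ones lay in a host with an optimal peak at its start. Another 87 lay in a host with a candidate there that was not optimal, and 21 in a host with no candidate there.

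Ribosomal protein hosts made up the strongest group. All 28 had a candidate and 24 an optimal peak (85.7%), with a median signal of 277. The 65 ribosomal protein genes that host no snoRNA had optimal peaks in 50 cases (76.9%) and a median signal of 238. RpS20, a small subunit protein gene with 2 snoRNA genes, had the highest signal of the group (573, pooled rank 306, ranks 455, 227 and 290 in replicates 1, 2 and 3), with the summit 192 bp upstream of its start. RpL28 followed with 542, RpL14 with 503 and RpS16, a host of 5, with 428. The 4 ribosomal protein hosts without an optimal peak still had candidates, the lowest with a signal of 65.0. A high share of optimal peaks was therefore found in ribosomal protein genes with and without a snoRNA, and the difference between the 2 groups was not tested.

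Other protein-coding hosts had optimal peaks in 26 of 58 cases (44.8%), against 23.2% of the 13794 other protein-coding genes that host none. This group held the highest signals of all hosts. Stt3A, which encodes the catalytic subunit of the oligosaccharyltransferase and hosts 3 members of the set, had a signal of 1119 (X:21054173-21054511, pooled rank 66, ranks 40, 139 and 62 in replicates 1, 2 and 3). Its summit lay 406 bp upstream of the gene start, in an intron of another gene. CG1142, a host of 1, had a signal of 944 (3R:7473771-7474123, pooled rank 102, ranks 62, 191 and 102), with the summit 186 bp upstream. Both were among the strongest regions of every replicate, although the snoRNA genes inside these hosts had no optimal peak at their own starts. No candidate lay within 500 bp of the start of 8 hosts of this group. Among them were Prp8, a core spliceosome component, and pAbp, the poly(A)-binding protein gene, which hosts 3. Such hosts can hold regions farther inside, as did Swim, with an optimal intronic peak (signal 116) 5416 bp from its start.

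**Figure D2:**
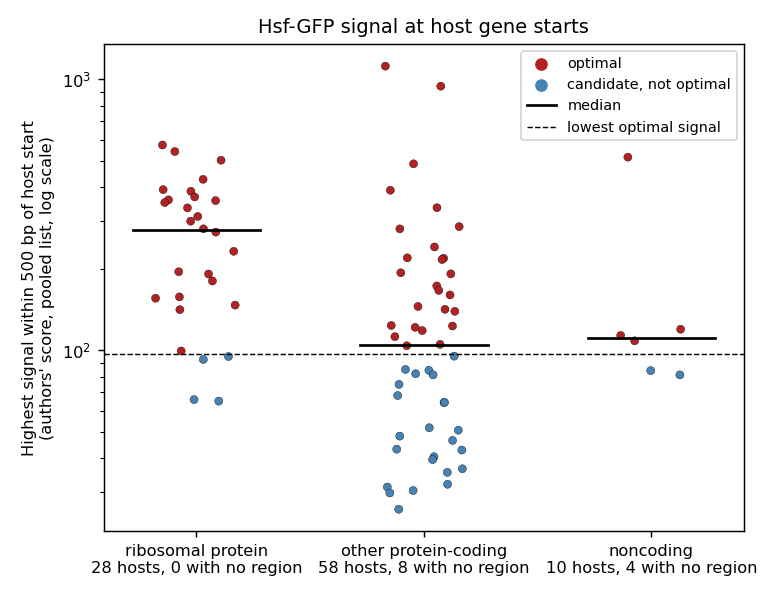
Highest pooled signal within 500 bp of each host start (log axis), for ribosomal protein, other protein-coding and noncoding hosts. Points are hosts (red optimal, blue candidate that is not optimal), bars are medians (277, 105 and 111), the dashed line is the lowest optimal signal of 97.0, and hosts with no region are counted under the axis.

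Of the 10 noncoding hosts, 4 had an optimal peak, and all 4 belonged to the 7 Uhg genes, which serve as transcripts for snoRNA production. Uhg4, with 7 snoRNA genes, was the strongest by far (signal 517, pooled rank 389, ranks 368, 482 and 308 in replicates 1, 2 and 3, summit 75 bp upstream of its start). Uhg1, with 16, had a signal of 119.7 and ranked 5078, 4188 and 7966 in replicates 1, 2 and 3. Uhg2, with 4, had 114 and ranked 5452, 5841 and 5435, and Uhg8, with 3, had 108 and ranked 6493, 3637 and 3085. Only Uhg4 among them was in the top 5756 of all 3 replicates. Uhg5, with 11, and Uhg3, with 3, had candidates of 84.3 and 81.2 that were not optimal, and Uhg7, with 4, had none. Hosts of few and of many snoRNA genes were compared by their counts alone. Hosts of 3 or more had optimal peaks in 15 of 25 cases (60.0%, median signal 146), and hosts of 1 or 2 in 39 of 71 (54.9%, median 140.4).

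The 4 hosts with most snoRNA genes show that spread. Arpc2, a subunit gene of the Arp2/3 actin complex that hosts 17, had a candidate of 74.9, at ranks 12103, 6297 and 8061 in replicates 1, 2 and 3. Uhg1, with 16, had the weak optimal peak given above. The chromatin remodeller gene dom, with 15, had a candidate of 84.5 that ranked 4512 in replicate 1 and 4979 in replicate 3 and was not matched in replicate 2. RpS5a, a ribosomal protein gene with 14, had an optimal peak of 281 with ranks 1971, 659 and 1910. Between them, these hosts ran from a candidate outside the top 5756 of every replicate to an optimal peak inside it in all 3.

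Position within the host divided the snoRNA genes. Of the 23 that started within 500 bp of their host's start, 19 had a candidate (82.6%) and 11 an optimal peak (47.8%). The shares were 87.5% and 56.2% for the host starts themselves, and 48.2% and 19.8% for all genes. Of the 40 that started more than 500 and up to 1000 bp away, 13 had a candidate and 0 an optimal peak. Of the 188 farther away, 25 had a candidate (13.3%) and 5 an optimal peak (2.66%). The 11 genes with an optimal peak close to a host start all rested on the 9 optimal peaks within 500 bp of that host start. For optimal peaks, the 47.8% therefore counts peaks at host starts again, since such a summit is then also near the snoRNA gene. The distance to the nearest optimal summit, which does not depend on the window, had a median of 1985 bp over the set, and that to the nearest candidate 924.5 bp.

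**Figure D3:**
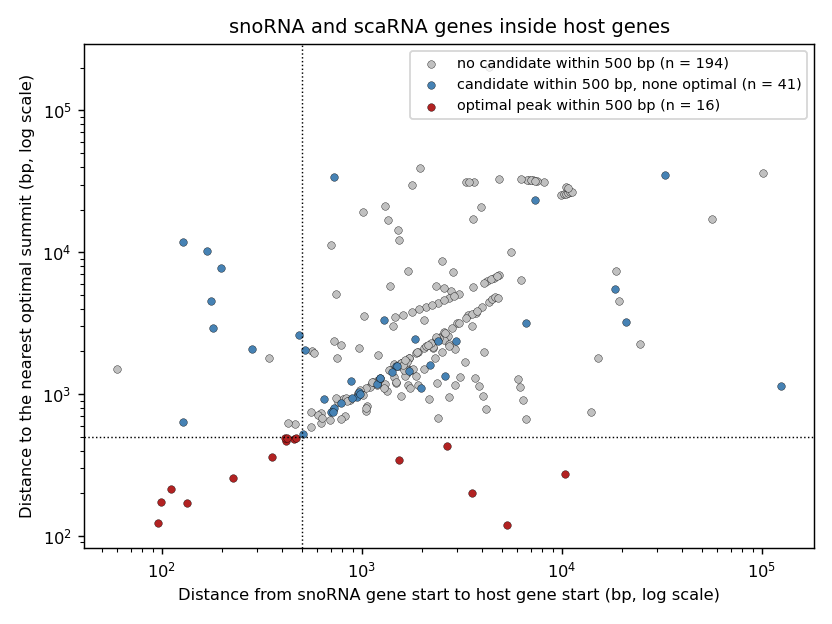
Each point is 1 of the 251 hosted snoRNA or scaRNA genes, with its distance to the host start on x and to the nearest optimal summit on y (both in bp, log axes), and dotted lines at 500 bp. Of the 16 genes with an optimal peak within 500 bp (red), 11 lie left of the vertical line, and the band along the diagonal holds genes whose nearest optimal summit is near the host start.

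The regions inside and around the hosts divided the same way. Of 111 regions within 500 bp of a host start, 56 were optimal (50.5%, median signal 99.2), against 31.9% of regions near any gene start. Of 272 regions elsewhere in the spans of hosts, 41 were optimal (15.1%, median signal 37.1), against 19.2% of all pooled regions. Among those 272, the 28 near a snoRNA gene included 3 optimal peaks (10.7%) and the 244 that were not near one included 38 (15.6%). Only the outermost annotated start of each host was used, so regions at its other transcript starts count as elsewhere in the span. The candidate near Psi28S-1135a, for example, lay 1137 bp from the gene start of RpS5a and 79 bp from another of its transcript starts. Within host spans away from the gene start, regions near snoRNA genes were thus optimal in no larger a share than other regions there.

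Summits also stood differently to the 2 kinds of start. At hosts, 45 of 84 strongest summits lay within 100 bp of the gene start (median distance 86 bp). At snoRNA genes, where every pair of gene and region was counted and not only the strongest, 16 of the 87 pairs did (median distance 243 bp). The 2 counts are thus of unlike units. Of the 21 pairs with an optimal peak, 18 had the summit upstream of the snoRNA gene, at a median distance of 275 bp, and 1 was within 100 bp. Coverage of the transcribed snoRNA sequence was near that of the genome for optimal peaks and somewhat above it for candidates. Optimal peaks overlapped 5 of the 274 genes (1.82%) and 1.17% of their bases, against 1.51% of the bases of the 6 arms, and candidates overlapped 40 genes (14.6%) and 11.6% of their bases, against 8.61% of the arms.

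**Figure D4:**
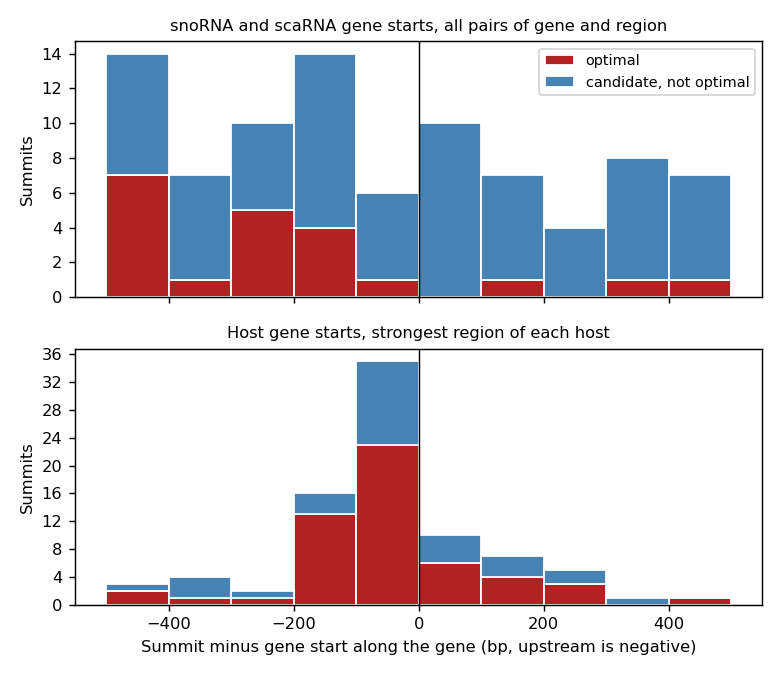
Position of summits relative to snoRNA and scaRNA gene starts (top, 87 pairs) and to host gene starts (bottom, strongest region of 84 hosts), in 100 bp bins with upstream negative, red for optimal peaks and blue for other candidates. Host summits gather within 100 bp of the start (45 of 84), and snoRNA summits do not (16 of 87).

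The 9 optimal peaks near both a snoRNA gene and its host start included the 5 strongest of the 17. The strongest lay 49 bp upstream of the start of RpL28, a large subunit protein gene, and 468 bp upstream of the orphan C/D gene Or-CD11a (3L:3222875-3223165). It had a pooled signal of 542 (rank 346) and signals of 185, 157 and 187 in replicates 1, 2 and 3 (ranks 446, 529 and 205). The peak of Uhg4 came next, 174 bp upstream of Psi28S-2949 and 487 bp upstream of the orphan H/ACA gene Or-aca5, with signals of 204, 163 and 153 in the 3 replicates. That of RpL14 (3L:8600793-8601096) lay 490 bp upstream of the C/D gene U49:66Da, with signals of 229, 127 and 163. All 3 were among the 1000 strongest regions of every replicate.

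The next peaks were also at ribosomal protein hosts. RpS29 had its summit 2 bp upstream of its start and 358 bp upstream of Psi18S-1275 (3R:9777935-9778131, pooled signal 357, replicate signals 132, 112 and 101). RpS12 had its summit 257 bp upstream of Me28S-A774b (3L:13023195-13023423, pooled signal 351, replicate signals 113, 118 and 108). RpL17 had its summit 494 bp upstream of Psi28S-1232 (X:6744142-6744443, pooled signal 273, replicate signals 101, 83.7 and 96.4). Each of these held its place within the top 5756 in all 3 replicates, and for RpL17 the snoRNA gene was only just inside the 500 bp window. RpL10Ab, with its summit 172 bp upstream of Psi18S-920 (3L:11822754-11822898), had a pooled signal of 158 and replicate signals of 29.0, 55.6 and 64.0. It ranked 9396 in replicate 1, outside the top 5756, and 2942 and 1751 in replicates 2 and 3.

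The other 8 optimal peaks lay away from a host start. Or-ACA6, an orphan H/ACA gene with no host on its strand, had one 475 bp upstream (pooled signal 291, rank 1201), in an intron and 3369 bp from the nearest start of a gene outside the set. Or-CD4, in Uhg5, had one 429 bp downstream of its start and 3081 bp from the start of Uhg5 (pooled signal 171, replicate signals 86.3, 28.6 and 54.4). Or-ACA9 (3R:15472138-15472648, minus strand) lies in an intron of AdamTS-A, a secreted metalloprotease gene. Its peak (3R:15472641-15473056) had a pooled signal of 168 and replicate signals of 54.3, 58.3 and 57.2. This peak overlapped only the edge of the snoRNA gene, with the summit 201 bp upstream of that gene's start and 3344 bp from the host start. The peak of snoRNA:185 (126) lay 214 bp from the start of a glutamate tRNA gene, and that of hts-a (98.1), in the adducin gene hts, lay 80 bp from the start of a valine tRNA gene. For hts-a, the nearest gene start was thus that of another gene, and its summit lay 275 bp from the snoRNA gene start.

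**Figure D5:**
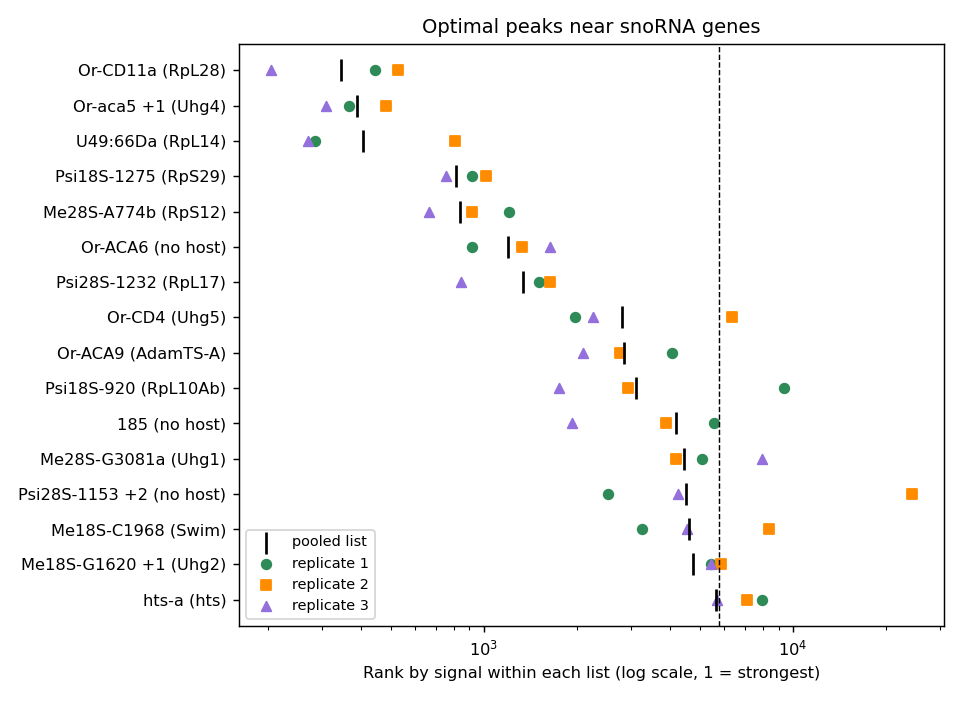
Rank by signal of 16 of the 17 optimal peaks near snoRNA genes in the pooled list (black bars) and in replicates 1, 2 and 3 (circles, squares, triangles), on a log axis with 1 the strongest, and the dashed line at rank 5756. Labels give the first listed snoRNA gene within 500 bp (not always the nearest), the number of further ones and the host. In all 3 replicates, 9 of the peaks lie left of the line.

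All 17 optimal peaks had an overlapping region in each replicate's list, and 9 were in the top 5756 of all 3 replicates, 6 of 2 and 2 of 1. Over all optimal peaks, 3909 of 5756 (67.9%) were in the top 5756 of all 3. The widest spread was at the peak shared by Psi28S-1153 and its neighbours, which ranked 2530 and 4259 in replicates 1 and 3 and 24385 in replicate 2. Just inside the optimal list were, among others, the peak at the start of Uhg2 (114) and the intronic one of hts-a (98.1), 10138 bp from the start of its host hts. Just outside were the candidates of Me18S-G1358c in RpL15 (95.0), of Me28S-C3227a and Me18S-C1366 in Uhg5 (84.3) and of Me28S-A1322 in eEF1alpha1, the translation elongation factor gene (81.4). The lowest signal of any optimal peak was 97.0.

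Of the 72 regions, 61 served 1 gene of the set and 11 served at least 2, up to 4 genes at a candidate inside Uhg4 with a signal of 35.5. By arm, an optimal peak was near 12 of 97 genes of the set on 2R (12.4%, on 9 regions), against 19.0% of all genes there, and near 4 of 53 on 3L (7.55%), against 20.7%. On 2L it was 2 of 42 (4.76%), against 18.7%, on 3R 2 of 50 (4.00%), against 21.6%, and on X 1 of 31 (3.23%), against 18.6%. The 1 gene of the set on 4 had none. The share of the set was thus below that of all genes on each of the 5 large arms, and the arms were not tested against each other. Regions close to the start of a gene outside the set were the stronger ones. Of 38 such regions within 500 bp, 13 were optimal (34.2%, median signal 65.7), and of the 34 others 4 were (11.8%, median signal 36.3). By setting, 21 regions lay at a host start (9 optimal, median signal 84.3), 32 in the reach of hosted genes away from the host start (5 optimal, median 37.5) and 19 at genes without a host (3 optimal, median 43.6).

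Across the classes of snoRNA, beside 19.8% of all genes, optimal peaks were near 5 of 106 Psi genes (4.72%), 6 of 78 Me genes (7.69%), 2 of 15 Or-CD genes, 3 of 9 Or-ACA genes (33.3%), 1 of 16 U-named genes and 4 of 33 others. Candidates were near 15 Psi genes (14.2%) and 28 Me genes (35.9%). Among the 17 scaRNA genes, 4 had a candidate and 0 an optimal peak. These were MeU1:95C-A24 (51.5), PsiU6-40 in skd (26.0), MeU2-G25 in mask (25.5) and MeU2-C28 in Stt3A (24.7), all under the lowest optimal signal of 97.0. The 3 U3 genes, which have no host, each had a candidate that was not optimal. That of U3:9B had a signal of 62.0 with its summit 197 bp downstream of the gene start, inside the gene. Those of U3:54Aa and U3:54Ab had signals of 29.2 and 28.4, and these 2 genes are uncertain, since none of their 50-mers occurred only once in the genome. U3:9B is limited in part too, since 69.5% of its 50-mers occurred only once. Over the set, 253 genes were made up only of 50-mers that occur once, and all 21 genes with an optimal peak were among them. Of the other 21, 5 had a candidate.

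Motifs were counted on both strands within 100 bp of the summit, beside regions at any gene start. Pooled and optimal regions are given for some motifs only. The DREF site was found at 6 of the 72 regions near snoRNA genes (8.33%) and 16 of 111 regions at host starts (14.4%), against 7.84% of regions at any gene start and 2.41% of pooled regions. The M1BP site, with at most 1 mismatch, was found at 8.33% and 20.7%, against 12.3% at any gene start. The heat shock element was found at 11 of 72 regions near snoRNA genes (15.3%) and 11 of 111 at host starts (9.91%), against 5.63% at any gene start and 5.18% of pooled regions. Among optimal peaks alone it was found at 2 of 17 near snoRNA genes, those of Uhg4 and Or-CD4, and at 5 of 56 at host starts (8.93%), against 6.38% of optimal peaks at any gene start and 6.18% of all optimal peaks. The E-box was found at 9.72% and 6.31% against 2.50%, the TATA box (TATAAAA) at 11.1% and 13.5% against 12.6%, and the site of GAGA factor (GAGAGAG) at 5.56% and 0% (0 of 111) against 3.84%. Among optimal peaks the TATA box was found at 3 of 17 near snoRNA genes and 6 of 56 at host starts (10.7%), against 16.1% at any gene start. The mean GC content was 42.8% in regions near snoRNA genes and 38.9% at host starts, against 40.4% at any gene start. Among optimal peaks it was 38.3% at host starts, against 36.6% at any gene start. The role of base composition in these shares was not tested.

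Ribosomal protein and other translation-related genes are known for a pyrimidine-rich initiator at the start site. The letters CTTT, on the gene's strand within 10 bp of the annotated start, were found at 23 of the 96 hosts (24.0%), against 9.88% of all genes. They were found at 12 of 28 ribosomal protein hosts (42.9%), 3 of 7 Uhg genes and 8 of 58 other protein-coding hosts (13.8%). Hosts with an optimal peak held them in 29.6% of cases and hosts without one in 16.7%, and this motif was chosen after the data were seen. Ribosomal protein genes made up 24 of the 54 hosts with an optimal peak, so the split by peak overlaps the split by gene group. A link between the motif and the peak was not tested.

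Genes for the proteins that assemble and carry snoRNAs were described from a list of 17. Of these, 15 had a candidate and 8 an optimal peak (47.1%), against 48.2% and 19.8% of all genes. In the C/D particle, Fib (fibrillarin, the methyltransferase) had an optimal peak with a signal of 286, while Nop56, nop5 and hoip had candidates of 95.6, 81.2 and 76.2. In the H/ACA particle, NHP2 had an optimal peak of 310, and the pseudouridine synthase gene Nop60B, Nop10 and Gar1 had candidates of 95.3, 64.7 and 54.9. Of the assembly factors, the ATPase genes pont and rept had optimal peaks of 252 and 232, spag one of 155 and Nufip one of 145. CG10341 had a candidate of 62.5 and CG10055 none. Nopp140, a chaperone of snoRNPs, had an optimal peak of 217 and coil, the coilin gene, one of 124, while WDR79 had no candidate. Fib and NHP2 were therefore the only listed core genes with an optimal peak, beside 23.7% of all protein-coding genes. The other optimal peaks of the list were at assembly, Cajal body and nucleolus genes, and no share was tested. Fib, nop5 and Nop60B are themselves snoRNA hosts and are counted among the 96.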

How the data were processed

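ChIP-seq of Hsf-GFP was carried out in 3 biological replicates of whole embryos. In the region lists that the authors deposited, the signal is their peak score against a control and a further column holds −log10 q. The signal was used to rank and describe regions within a list, and the −log10 q values given by the authors were not used to rank. Chromatin was sheared to 200 to 800 bp, per the labels. Aligner and peak caller were not given in the sources used here. Depth is unknown, and weak regions are less certain. The dm6 lists were used and the dm3 lists were not. Optimal status meant the same interval and summit in the optimal list. Replicate values are those of the strongest region of each replicate overlapping by at least 1 bp. Gene starts came from Ensembl models (annotation 6.54), and hosts were assigned from gene spans on the same strand. The rest was computed in Python 3.11.15 with numpy 2.4.6, pandas 2.3.3 and matplotlib 3.10.9, and the joins, motif scan and 50-mer counts were tested on simulated data. Sequences were read from the RefSeq dm6 genome, and of the printed ones none overlaps an annotated UTR. Genes were named by rule, namely those of the 12 strongest regions, the 4 hosts with most members, all Uhg and U3 genes, the scaRNA genes with a candidate, the regions at the optimal limit and the snoRNP list, while the other hosts named (those with high signals or no region) and Psi28S-1153 were chosen after their values were seen. The members and lists were chosen with earlier results of these data known. The region of 1 of the 17 optimal peaks near snoRNA genes is counted but not reported here by name. There is 1 group, so no contrast was tested and no p-value was computed.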

Additional observations from a re-analysis of the deposited data

How the results depend on the processing

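No paired analysis was possible because all samples belong to 1 group. Of 33 alternative values, 9 stayed within the replicate spread or within 1.5 times the count, and 24 moved. With a window of 200 bp, 35 snoRNA genes had a candidate and 6 an optimal peak (2.19%, against 14.1% of all genes), the median signal was 38.9 and 16.2% of regions were optimal. With 1000 bp the values were 149 genes, 65 genes (23.7%, against 24.1% of all genes), 52.3 and 29.3%, so the lower optimal share of snoRNA genes depends on the window. With overlap of the gene span they were 40 genes, 5 genes, 38.6 and 11.4%. Shares of all genes are not given for the candidate counts under these windows, nor for the counts by overlap. Optimal peaks above the median optimal signal gave 10 genes (3.65%, against 11.3% of all genes), 12.5% of regions and 34 hosts. Among those in the top 5756 of all 3 replicates the values were 10 genes (3.65%, against 14.1% of all genes) and 12.5%, and with summits within 100 bp 9 genes and 11.1%. Leaving out each replicate in turn, with peaks in the top of both others, gave 11 to 17 genes, 13.9 to 18.1% of regions and 43 to 45 hosts. With replicate 1, 2 or 3 left out the share of snoRNA genes was 4.01%, 6.20% and 4.01%, against 15.6%, 15.8% and 15.0% of all genes. The number of hosts with an optimal peak was 46 with 200 bp, 58 with 1000 bp, 40 and 38 under the replicate rules and 55 of 106 with hosts on either strand. Limits are the unknown depth, host assignment by annotation only, mixed tissues and the small counts per class.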
